A study of Mus musculus with 12 samples.

Results

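The Iroquois (Irx) genes of the mouse lie in 2 clusters, IrxA on chromosome 13 with Irx1, Irx2 and Irx4, and IrxB on chromosome 8 with Irx3, Irx5 and Irx6. Sites enriched for H3K27me3, histone H3 trimethylated at lysine 27, were taken from 1 list of 101389 sites if at least 1 bp lay between 100 kb before the first and 100 kb after the last gene of a cluster. The rule used gene positions only (GRCm38, mm10). It found 302 sites, 94 in the IrxA interval (chr13:71857921-73369608, 1512 kb) and 208 in the IrxB interval (chr8:91698525-92780956, 1082 kb).

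The list was made by chromatin immunoprecipitation and sequencing (ChIP-seq) of immortalized mouse embryo fibroblasts (iMEF). The 12 libraries were 8 H3K27me3 libraries, 2 from untreated cells and 2 from each time point after addition of dTAG (16 h, 24 h and 48 h), and 4 input libraries, with 2 each from untreated and from dTAG-treated cells labelled 48 h. All groups, controls included, lacked Ash2l exon 4, removed from floxed alleles by an inducible Cre-ER, and the cells depended on a lentiviral human ASH2L fused at its N-terminus to FKBP12(F36V). ASH2L belongs to the COMPASS (KMT2) complexes, the enzymes of H3K4 methylation, and dTAG-13 ties the fusion protein to an E3 ubiquitin ligase and so removes it. The study describes the cells as 1 clone, NG3, with biological replicates. The list gave only the chromosome, start and end of each site over all libraries. It held no read count and no value of a single library, so sites of untreated and treated cells could not be told apart in it. It gives neither the depth behind a site nor a replicate error, and no test between time points could be run from it. The study also compared each time point with untreated cells, and those calls are not analysed here. A site is a stretch that the authors called enriched, and covered bases are the bases that lie in sites.

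H3K27me3 is placed by Polycomb repressive complex 2, and broad domains of the mark cover many developmental regulator genes in cells that keep them silent. CpG islands, stretches rich in unmethylated CG dinucleotides at gene starts, are the usual places at which Polycomb complexes bind in mammals. The Irx genes encode homeodomain transcription factors of the TALE class with a role in patterning the neural tube, heart and limbs. The clusters arose by duplication, so that Irx1 and Irx3, Irx2 and Irx5, and Irx4 and Irx6 are paralogous pairs in the same order and orientation, and each cluster holds long non-coding stretches with developmental enhancers.

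The 200 bases before the most upstream transcription start site (TSS) are shown for Irx1 and for the 3 IrxB genes, since these starts ranged from fully covered to far from any site. The sequences are from RefSeq (GRCm38.p6), written 5′ to 3′ on the strand of the gene, with each CG dinucleotide, the methylatable unit of a CpG island, in capitals. Irx1 (chr13:71963724-71963923, minus strand) and Irx6 (chr8:92674088-92674287, plus strand) lay in sites over all 200 bases, and Irx3 (chr8:91802068-91802267, minus strand) and Irx5 (chr8:92357425-92357624, plus strand) over 0.
Irx1: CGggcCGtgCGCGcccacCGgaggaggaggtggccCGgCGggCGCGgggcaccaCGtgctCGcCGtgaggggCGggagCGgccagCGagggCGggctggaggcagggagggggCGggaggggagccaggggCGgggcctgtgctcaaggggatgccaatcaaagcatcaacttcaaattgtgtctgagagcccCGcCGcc
Irx3: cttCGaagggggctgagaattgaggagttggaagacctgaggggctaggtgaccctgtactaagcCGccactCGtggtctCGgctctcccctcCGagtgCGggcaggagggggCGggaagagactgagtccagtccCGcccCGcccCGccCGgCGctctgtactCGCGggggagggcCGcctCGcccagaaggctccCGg
Irx5: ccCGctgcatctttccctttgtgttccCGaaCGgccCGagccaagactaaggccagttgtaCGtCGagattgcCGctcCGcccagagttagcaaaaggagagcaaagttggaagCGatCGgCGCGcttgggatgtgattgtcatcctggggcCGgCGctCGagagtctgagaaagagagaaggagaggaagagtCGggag
Irx6: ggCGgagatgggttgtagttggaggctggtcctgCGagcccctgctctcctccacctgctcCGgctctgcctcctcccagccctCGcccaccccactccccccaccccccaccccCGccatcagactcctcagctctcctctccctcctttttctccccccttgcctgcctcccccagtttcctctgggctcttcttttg

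The letters of these windows did not order the genes as the sites did. The covered Irx1 window held 20 CG dinucleotides, and the uncovered Irx3 and Irx5 windows held 17 and 16. The covered Irx6 window held 5. The windows of Irx2 and Irx4, both covered over 200 bases, held 15 and 19. Over all 21665 promoter windows of this length the median was 7 CG dinucleotides. At least as many as in Irx1 were found in 14.4% of windows, as in Irx3 in 21.5%, as in Irx5 in 24.4% and as in Irx6 in 60.9%.

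Both clusters carried H3K27me3 sites above the level of the genome, but they carried them differently. In IrxA the 3 widest of the 94 sites lay over Irx1, Irx2 and Irx4 and held 37.5% of the covered bases, with long stretches without sites between the genes. In IrxB the 3 widest sites held 13.3% and lay off the genes, Irx6 was covered, Irx3 was covered in part, and Irx5 stood in the longest site-free stretch of its interval. Sites covered 194 kb, or 12.8%, of the IrxA interval and 338 kb, or 31.3%, of the IrxB interval, a ratio of 2.44, against 6.75% of all chromosomes outside assembly gaps. The number of sites per Mb was 62.2 in IrxA and 192 in IrxB, a ratio of 3.09, against 39.6 over all chromosomes. This measure moved with the settings, to 36.6 and 193 per Mb with no flank and to 21.2 and 44.3 per Mb with sites less than 3 kb apart merged. With 2 intervals that are no replicates, these differences are descriptions without a test.

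**Figure D1:**
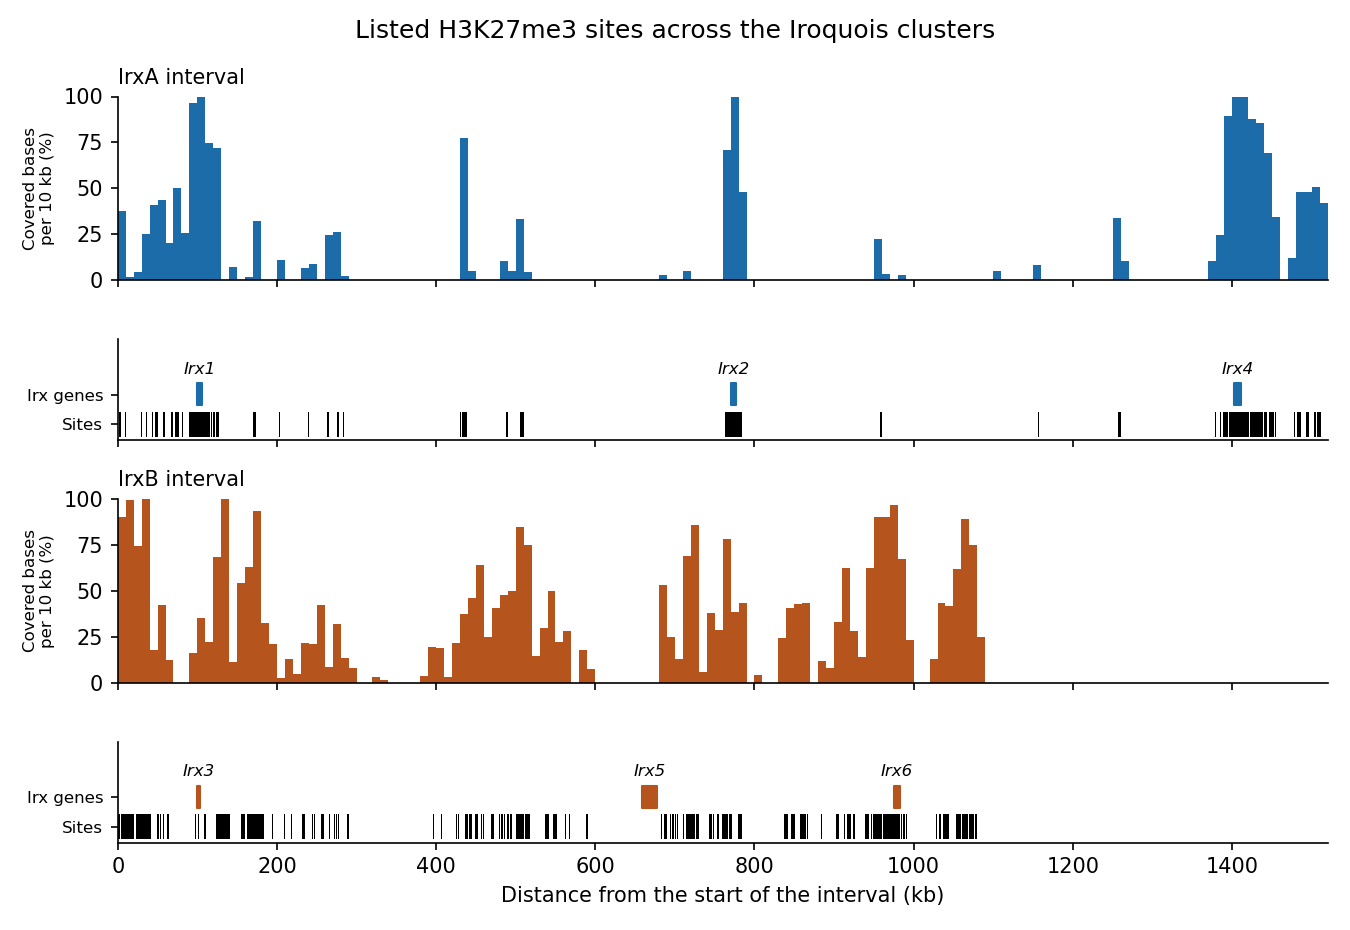
Share of bases covered by listed H3K27me3 sites in 10 kb bins (bars, %), with the Irx genes (colored boxes) and the sites (black), against the distance from the start of each interval (kb). IrxA has peaks at Irx1, Irx2 and Irx4, with long site-free stretches and some covered bins between them. The IrxA bin at 430 kb is covered to 77.33%. IrxB has covered bins along most of its 1082 kb but none at Irx5.

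In the IrxA cluster each gene lay from end to end within 1 site. Irx1 (ENSMUSG00000060969.9, chr13:71957921-71963723, minus strand, 5803 bp) lay in a site of 25.3 kb (chr13:71948444-71973785). This site reached 10062 bp upstream of the gene and 9477 bp past its 3′ end. Irx2 (ENSMUSG00000001504.10, chr13:72628820-72634198, plus strand, 5379 bp) lay in a site of 21.6 kb (chr13:72620856-72642435), which reached 7964 bp upstream and 8237 bp past the 3′ end. Irx4 (ENSMUSG00000021604.15, chr13:73260479-73269608, plus strand, 9130 bp), the Iroquois gene known from the ventricles of the heart, lay in a site of 25.7 kb (chr13:73253794-73279507), which reached 6685 bp upstream and 9899 bp past the 3′ end. These 3 sites were among the widest of the list. By width the sites of Irx4, Irx1 and Irx2 took the ranks 347, 357 and 514 of 101305 sites on the assembled chromosomes, of which 599 (0.591%) spanned at least 20 kb. All annotated TSSs of the 3 genes lay inside these sites.

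The surroundings of the 3 IrxA genes differed. Within 50 kb on either side of the most upstream TSS, sites covered 47.9% of the bases at Irx1 with 21 sites, 59.2% at Irx4 with 15 sites, and 21.9% at Irx2 with 2 sites. The Irx2 site thus stood almost alone, with free stretches of 47.6 kb on one side and 172 kb beyond a small neighbouring site on the other. When sites less than 3 kb apart were merged, the Irx2 domain measured 22432 bp, that of Irx1 39520 bp and that of Irx4 69581 bp.

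In the IrxB cluster the 3 genes fell into 3 different states. Irx6 (ENSMUSG00000031738.14, chr8:92674288-92680956, plus strand, 6669 bp) was the gene covered from end to end, by a site of 9.07 kb (chr8:92672833-92681907) that reached 1455 bp upstream and 951 bp past the 3′ end. It took rank 2802 by width. A second wide site of 11.8 kb (chr8:92660636-92672477) ended just before it, and merging sites less than 3 kb apart gave a domain of 56038 bp around Irx6.

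Irx3 (ENSMUSG00000031734.13, chr8:91798525-91802067, minus strand, 3543 bp), which acts in the neural tube and the limb bud, held a site of 1941 bp (chr8:91799117-91801057) in its body, which covered 54.8% of the gene. This site began 858 bp downstream of the TSS of Irx3-201 and 1010 bp downstream of that of Irx3-202, so that neither start was covered. The site-free stretch around the Irx3 start was 5861 bp long (chr8:91801058-91806918) and ended upstream at a site of 3021 bp. The start of Irx3os, the antisense transcript that begins inside Irx3, lay within the 1941 bp site.

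Irx5 (ENSMUSG00000031737.11, chr8:92357625-92376286, plus strand, 18662 bp), which works with Irx3 in heart and limb development, held 0 covered bases. The nearest site was 304 bp wide and began 21092 bp downstream of the most upstream TSS. The site-free stretch around Irx5 spanned 89.4 kb (chr8:92289274-92378716), with 68351 bp before and 21091 bp after that TSS. It also held Crnde, a long non-coding RNA gene on the other strand next to Irx5, and the long intergenic non-coding RNA gene Gm21817. The stretch held no unknown bases, and 18.8% of it was repeat-masked sequence, against 20.8% of the whole IrxB interval. Whether reads can be placed uniquely in this stretch was not tested.

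**Figure D2:**
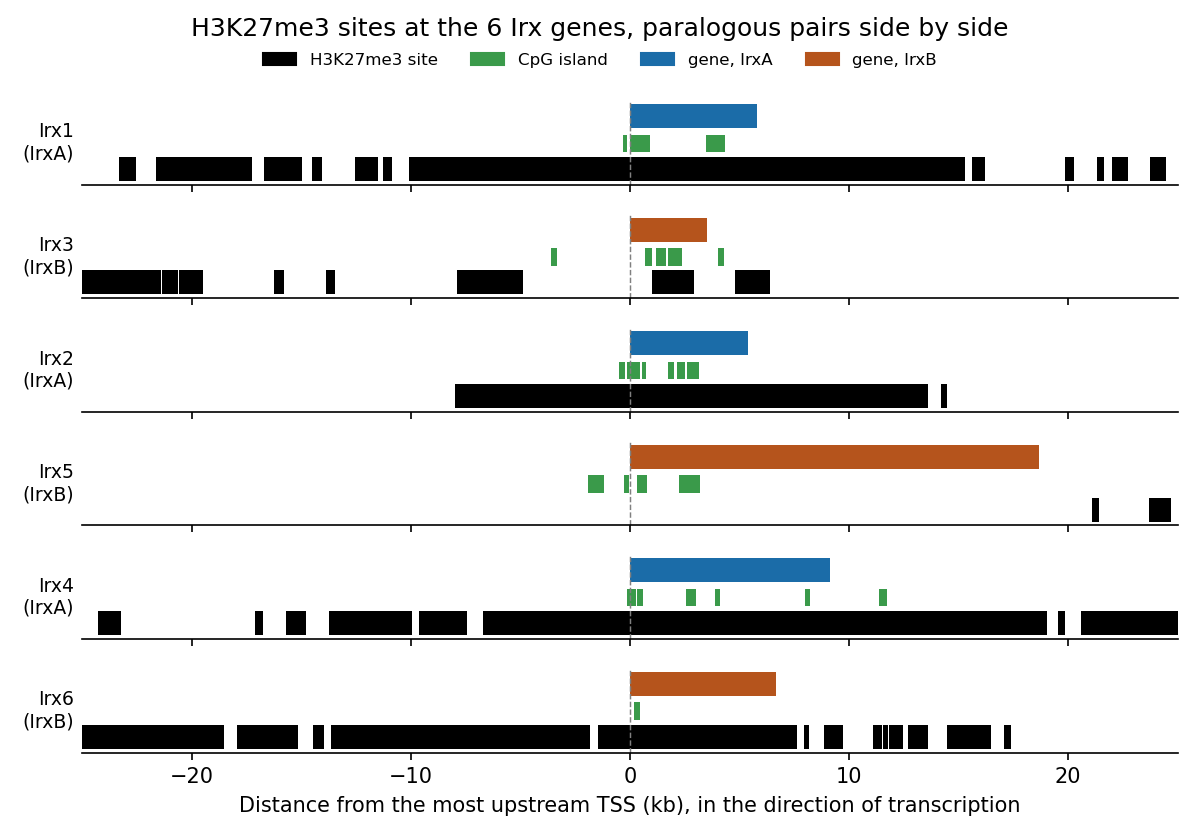
Listed H3K27me3 sites (black), CpG islands (green) and genes (blue, IrxA, and orange, IrxB) from 25 kb before to 25 kb after the most upstream TSS of each Irx gene, in the direction of transcription, with paralogs in neighbouring rows. A single site runs across Irx1, Irx2, Irx4 and Irx6, the start of Irx3 is free, and the whole of Irx5 is free with its 4 islands.

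Set side by side as paralogs, Irx1 was covered more than Irx3 and Irx2 more than Irx5 near the start, while Irx4 and Irx6 were close. Within 10 kb on either side of the most upstream TSS, sites covered 100% of the bases at Irx1 and 32.8% at Irx3, 89.8% at Irx2 and 0% at Irx5, and 94.6% at Irx4 and 92.0% at Irx6. Among 21670 protein-coding genes, 2.59% had at least the 89.8% of Irx2, the lowest of the 4 genes in a wide domain, and 56.4% had no covered base in this window, as Irx5. Of the last pair, Irx6 was covered more over the 10 kb upstream, at 96.5% against 89.2% at Irx4, and less over the 10 kb downstream, at 87.5% against 100%. This pair differed in the width of the called site, 25.7 kb against 9.07 kb, more than in the covered share. Within 50 kb the IrxA gene was the more covered one of each pair, with 47.9% at Irx1 and 28.7% at Irx3, 21.9% at Irx2 and 9.05% at Irx5, and 59.2% at Irx4 and 44.4% at Irx6.

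Of the 6 Irx genes, 5 had a site less than 1 kb from a TSS, 3 of 3 in IrxA and 2 of 3 in IrxB, and the gene without one was Irx5. Of all 21755 protein-coding genes, 26.9% had at least 1 bp of a site within 1 kb of a TSS. With the centre of a site required in this window, 2 Irx genes remained, Irx1 and Irx2, and none in IrxB. The share of all protein-coding genes by this centre rule is not given here. Counted by a TSS base inside a site, there were 4 Irx genes, against 21.4% of protein-coding genes, since Irx3 then dropped out beside Irx5. Gene bodies covered from end to end were found for the same 4 genes, Irx1, Irx2, Irx4 and Irx6, against 2.79% of protein-coding genes. All 6 Irx genes had a CpG island within 1 kb of a TSS, and of all 12208 protein-coding genes with such an island 26.3% had a site at this distance.

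Islands with a site made up a larger share in IrxA than in IrxB. The IrxA interval held 18 islands, of which 15 (83.3%) touched a site, and the IrxB interval held 12, of which 6 (50.0%) did. Over all 19092 islands the share was 25.6%. The touched islands of IrxA all lay in the sites over Irx1 (3), Irx2 (6) and Irx4 (6). Those of IrxB lay in the site in Irx3 (3), the site over Irx6 (1) and an intergenic site of 5.63 kb (2). Islands in the same site are not independent counts, and an island of 342 bp at Irx3 was covered over 10 bp. Within 2 kb of the genes, all islands touched a site at Irx1 (3 of 3), Irx2 (6 of 6), Irx4 (5 of 5) and Irx6 (1 of 1). At Irx3 there were 3 of 4, and at Irx5 0 of 4. The 4 islands near Irx5 measured 235 to 943 bp, a span like that of the Irx1 islands, 202 to 951 bp.

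The distance of covered bases from the genes ran opposite ways in part of the range. Within 10 kb of the nearest Irx TSS, sites covered 94.8% of the bases in IrxA and 41.6% in IrxB. From 25 to 50 kb the shares were close, 21.0% and 21.2%. From 50 to 100 kb they were 8.82% in IrxA and 45.1% in IrxB, and from 100 to 200 kb 5.53% and 30.6%. Within the IrxA interval the share fell with each step of distance, down to 3.07% from 200 to 400 kb. This is below the 6.75% of the genome. In the IrxB interval the share was highest from 50 to 100 kb and still 13.5% from 200 to 400 kb. The intervals end 100 kb outside the end genes, so nearly all bases beyond 100 kb lay between genes. The 1 Mb before and after the interval were covered to 15.9% and 24.7% for IrxA, and to 5.68% and 26.9% for IrxB. Bases within 10 kb of an Irx TSS made up 29.4% of all covered bases in IrxA and 7.38% in IrxB.

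**Figure D3:**
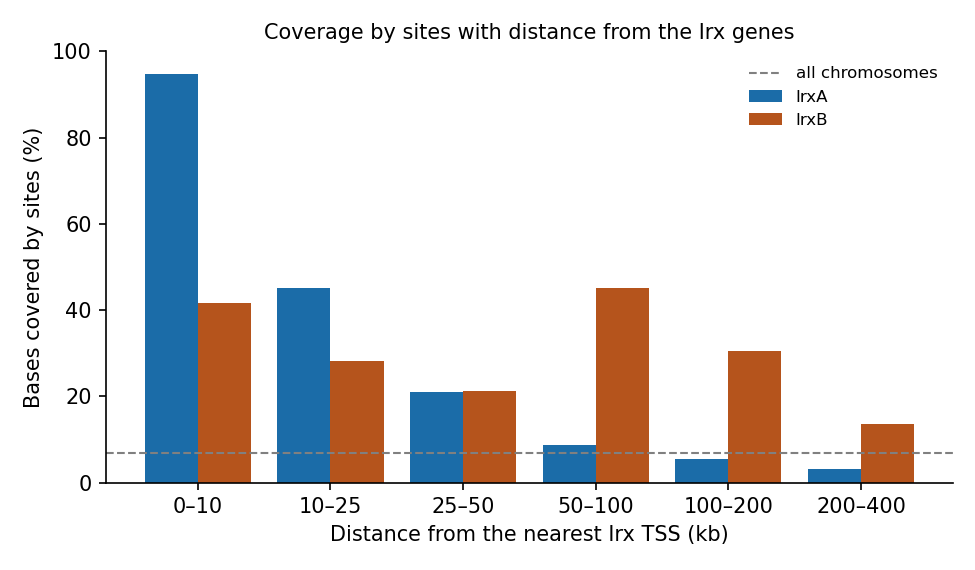
Share of bases covered by listed H3K27me3 sites (%) against the distance from the nearest Irx TSS (kb) in the IrxA (blue) and IrxB (orange) intervals, with the share over all chromosomes (6.75%) as a dashed line. IrxA falls from 94.8% to 3.07%, and IrxB has its highest bar, 45.1%, from 50 to 100 kb.

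The stretches between the genes held most of this difference. In IrxA, sites covered 8.02% of the 665 kb between Irx1 and Irx2, with 36 sites, and 5.13% of the 626 kb between Irx2 and Irx4, with 13 sites. In IrxB they covered 24.5% of the 556 kb between Irx3 and Irx5, with 99 sites, and 36.5% of the 298 kb between Irx5 and Irx6, with 70 sites. No site that lay wholly between 2 IrxA genes was wider than 4448 bp, while the widest between Irx3 and Irx5 measured 15555 bp. The outer 100 kb were well covered in both clusters, with 34.6% before Irx1, 53.2% after Irx4, 45.3% before Irx3 and 39.7% after Irx6.

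Site-free stretches mirrored this. IrxA held 7 stretches longer than 50 kb, which together took 886 kb, or 58.6% of the interval, and the longest (chr13:72368398-72543323) measured 175 kb. IrxB held 2, which took 140 kb, or 12.9%, and the longer one was the stretch of 89.4 kb around Irx5. The longest free stretches of IrxA held pseudogenes and non-coding transcripts or no annotated gene, whereas that of IrxB held a member of the cluster.

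Most sites were narrow in both clusters. The median width was 784 bp in IrxA and 688 bp in IrxB, against 676 bp over the whole list. The order of the clusters turned when only sites of at least 500 bp were kept, with medians of 1226.5 bp in IrxA and 1450.5 bp in IrxB, so no difference in width is read from the medians. Sites under 500 bp made up 29.8% in IrxA (28 sites) and 40.4% in IrxB (84 sites), against 38.5% of all sites. Sites of at least 10 kb numbered 4 of 94 in IrxA and 5 of 208 in IrxB, against 2383 (2.35%) of all sites. The 3 widest sites, those of the 3 Irx genes, held 72.6 kb or 37.5% of the covered bases in IrxA. In IrxB the 3 widest held 45.1 kb or 13.3%, and none of them lay on an Irx gene.

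The widest IrxB sites were intergenic or lay on long non-coding RNA genes. They measured 17.7 kb (chr8:91721092-91738785), 15.6 kb (chr8:91823476-91839030), 11.8 kb beside Irx6, 11.0 kb over Gm28511 and 10.6 kb over Gm36325, and each held 0 CpG islands. The sites over Irx4, Irx1 and Irx2 held 6, 3 and 6. In IrxA the next widest sites, 10.9 kb and 5.30 kb, followed Irx4 in intergenic sequence and held 0 islands. By the place of their centres, 2 IrxA sites lay in exons, 26 in introns and 66 in intergenic sequence, and for IrxB the numbers were 5, 21 and 182.

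The share of G and C under the sites was close between the clusters. The observed-to-expected CpG ratio differed both under and outside the sites. In IrxA, sites had 48.9% G and C and an observed-to-expected CpG ratio of 0.271, against 43.6% and 0.156 in the rest of the interval. In IrxB, sites had 48.1% and 0.215, against 45.0% and 0.216 outside sites. Repeat-masked bases made up 10.7% of the sequence in sites and 25.3% outside in IrxA, and 14.7% and 23.6% in IrxB. Reads from repeats are harder to place, and the part of this in the positions of sites was not tested.

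Windows of the same length along the genome give a background for the covered shares. Of 1692 consecutive windows as long as the IrxA interval, 20.5% were covered at least as much as IrxA, and the median window was covered to 2.76%. Of 2362 windows as long as the IrxB interval, 2.96% were covered at least as much as IrxB, with a median of 2.39%. The covered share of IrxA as a whole was thus not rare among long windows, although its genes lay in some of the widest sites, and that of IrxB was high in rank, with 70 windows covered at least as much and the most covered one at 58.6%.

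**Figure D4:**
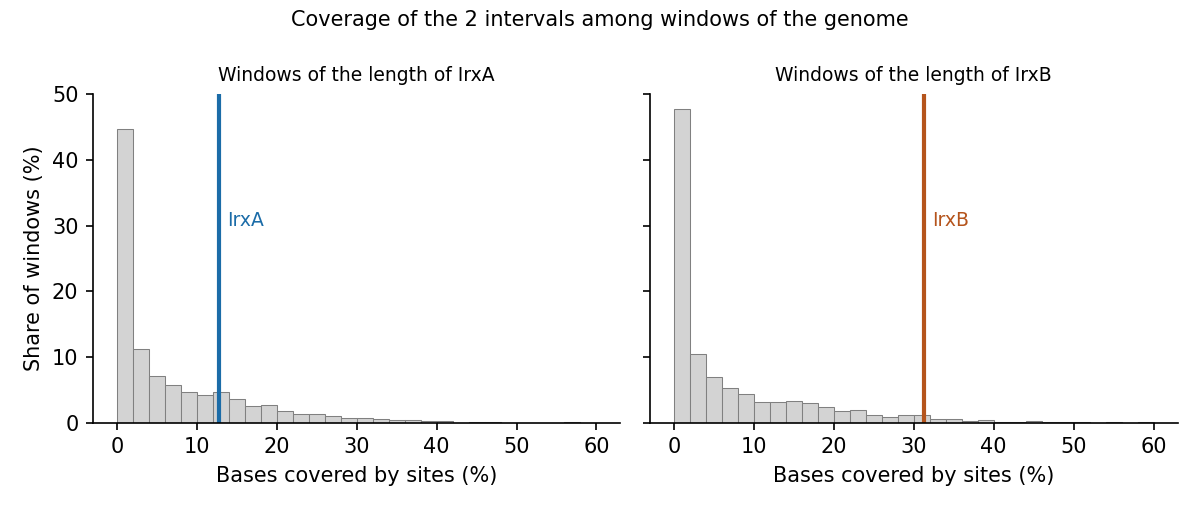
Share of consecutive genome windows (%) by the share of their bases covered by listed H3K27me3 sites (%), for windows of the length of the IrxA (left) and IrxB (right) intervals. The lines mark IrxA at 12.8%, which 20.5% of windows reached, and IrxB at 31.3%, which 2.96% reached.

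Of enhancers tested in transgenic embryos and kept in the VISTA collection, RefSeq placed 3 in the intervals. The IrxA enhancer mm68 (chr13:73298274-73300313) was covered to 94.6%. In IrxB, mm1211 (chr8:91712437-91716525) was covered to 100% and mm1651 (chr8:91966331-91968303) to 0%. Of all 620 VISTA enhancers in the annotation, 16.9% touched a site.

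Among the other annotated genes of the intervals, a TSS less than 1 kb from a site was found for 4 of 16 in IrxA. Apart from Ndufs6 and Mrpl36, these genes are annotated as non-coding RNAs, pseudogenes or unclassified transcripts, and over all 32088 genes of such types the share was 16.0%. The 4 in IrxA all belonged to these types: Gm40999, Gm20554, Gm48000 and D730050B12Rik. The body of Gm20554, a long intergenic non-coding RNA gene beside the start of Irx2, was covered to 100%, as was that of Gm48000 downstream of Irx4. The other protein-coding genes, Ndufs6, a subunit of mitochondrial complex I, and Mrpl36, a protein of the mitochondrial ribosome, had their nearest sites at 7467 bp and 4983 bp. Both lay in a site-free stretch of 23.1 kb inside the well-covered 100 kb after Irx4. In IrxB it was found for 8 of 17, namely Gm36325, Irx3os, Gm28511, Gm36670, Gm45332, Gm45335, Gm45336 and Gm45505, and none of the 17 codes for protein. Bodies were covered to 100% at Gm36325 and Gm28511, to 85.8% at Gm45505, which overlaps the 3′ end of Irx6, and to 0% at Crnde, whose nearest site was 22597 bp from its TSS.

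Other homeobox genes were counted the same way. Of 12 other TALE genes, 4 (33.3%) carried a site near a TSS (1 kb), against 26.9% of protein-coding genes. They were Meis3 with a site of 5205 bp, Pknox2 with 1624 bp, Mkx, whose site of 438 bp lay 418 bp from a TSS, and Pbx3. Sites covered 2.12% of the body of Meis3, 31.1% of Pknox2, 0% of Mkx and 0.284% of Pbx3. The median body coverage was 0% in that list and 100% in the Irx genes. Among the Dlx genes, a homeobox family in linked pairs, 3 of 6 had a site. The neighbours Dlx3 and Dlx4 were covered from end to end, with sites of 8146 bp and 19767 bp, and Dlx6 was covered to 37.9%. The width of the Dlx4 site was below those of the 3 IrxA genes and above that of Irx6.

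Of 6 genes known from fibroblasts, Col1a1, Col1a2, Vim, Pdgfrb and Thy1 lacked a site less than 1 kb from a TSS, and Pdgfra had one, with 1.76% of its body covered. The count, 16.7%, stands beside 26.9% of all protein-coding genes and does not check the cell type. The list gives no RNA level, so neither the cell type nor the transcription of any Irx gene was measured here.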

How the data were processed

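H3K27me3 ChIP-seq and input libraries of iMEF cells were sequenced as single-end reads. Per the study's methods reads were trimmed (Trim Galore) and aligned to mm10 (BWA) by the authors, who merged replicates with Picard and called broad peaks with MACS. The submitters' processing notes name BWA, SAMtools, MACS2, deepTools and DESeq2. Versions, cutoffs and the rule that joined peaks into 1 list are not given in the sources used here. The values of the deposited list used here are positions, the start and end of each site in bp, with no count, score or depth. The study's table of sites changed at each time point is not analysed here. Whether peaks were called on the merged replicates is not stated. The list is 1 for all libraries, which leaves no replicate error, and broad calling joins nearby enriched stretches, so widths depend on its settings.

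The 4 H3K27me3 groups were mapped from the labels, with 2 libraries each. The test of treated against untreated cells that had been planned needs values per library and was not run. The number of unused columns of single libraries was 0. Starts were read as counted from 0, since the narrowest site then measures 200 bp, and are printed counted from 1.

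Genes are from GENCODE M21 (GRCm38). CpG islands were runs of at least 200 bp scored 17 per CG and -1 per other base in sequence without repeats, with at least 50% G and C and an observed-to-expected ratio of at least 0.6. Windows on the genome with over 50% assembly gaps were left out. No base of either interval was found in the other sequences of GRCm38.p6 by minimap2 (2.31-r1302; alignments of at least 10 kb and 95% identity). Python 3.11.15, numpy 2.4.6 and pandas 2.3.3 were used, and the scripts were tested on simulated data. Named were all 6 Irx genes, other genes of the intervals with a site at a TSS or on one of the 5 widest sites, and members with a site of 3 lists (other TALE genes, Dlx genes, fibroblast genes). Genes named outside this rule were chosen after their values were seen. The members, intervals and lists were chosen with earlier results of these data known. Alternatives changed the flank, a minimum width, the merging of sites, the window at a TSS, the transcripts, and the rule for lying inside.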

Additional observations from a re-analysis of the deposited data

How the results depend on the processing

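IrxB was covered more than IrxA under every alternative run. The covered shares of IrxA and IrxB were 11.7% and 27.4% with flanks of 50 kb, 14.4% and 28.0% with 200 kb, 8.06% and 28.7% with no flank, 12.2% and 28.7% with sites of at least 500 bp, 11.1% and 25.7% with at least 1000 bp, and 14.2% and 35.5% or 15.7% and 44.5% with sites less than 1 or 3 kb apart merged. The ratio ran from 1.94 (flanks of 200 kb) to 3.56 (no flank). IrxA held 48 sites with no flank. IrxA and IrxB held 41 and 79 sites of at least 1000 bp, 46 and 103 merged within 1 kb and 32 and 48 merged within 3 kb, and IrxB held 124 of at least 500 bp. Removing narrow sites or merging raises the median width by construction, to 1226.5 and 1450.5 bp (at least 500 bp), 1968 and 2326 bp (at least 1000 bp), 2072.5 and 1599 bp (merged within 1 kb) and 2723.5 and 5761 bp (merged within 3 kb), so which cluster had the wider median depended on these choices. Counting a site only where its centre lay within 1 kb of a TSS left 2 Irx genes, Irx1 and Irx2, since the centres of the sites at Irx3, Irx4 and Irx6 lay further away. A window of 500 bp left 4, without Irx3. No paired analysis was possible because the list has no values of single libraries; for the same reason no replicate could be left out.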

Other observations

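Beyond the intervals the clusters had unlike neighbours. The 1 Mb before IrxA held 140 sites that covered 15.9% of it and no protein-coding gene, and the 1 Mb after IrxA held 100 sites that covered 24.7%. There 7 of 21 protein-coding genes carried a site less than 1 kb from a TSS, a share near the 26.9% of all protein-coding genes. They were the transporter genes Slc6a3, Slc6a18, Slc6a19, Slc9a3 and Slc12a7, and also Nkd2 and Tppp. The 1 Mb before IrxB held 50 sites that covered 5.68%, below the 6.75% of the genome, and 1 of its 6 protein-coding genes, Aktip, had a site. Fto, the gene whose introns carry obesity-associated variants in people and contact IRX3, had none, nor had Rpgrip1l, Rbl2 or Chd9. The 1 Mb after IrxB held 228 sites that covered 26.9% of its bases, and 7 of 13 protein-coding genes had a site. Of these 7, 6 were carboxylesterase genes (Ces1b, Ces1c, Ces1d, Ces1e, Ces1f and Ces5a) and the other was the noradrenaline transporter gene Slc6a2. The carboxylesterase genes Ces1a, Ces1g and Ces1h had none. The Ces1 genes are close copies of each other, so reads may be shared between them.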
